A study of Mus musculus with 6 samples.

Results

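The genes described here encode subunits of the mitochondrial respiratory chain, complexes I to V, together with the assembly factors of complex I that share its gene prefix. They were chosen by gene symbol alone. Probe sets that name a single gene were taken where that symbol starts with Nduf, Uqcr or Atp5, is one of Sdha to Sdhd, or starts with Cox4, Cox5, Cox6, Cox7 or Cox8. This gave 90 genes of the 18194 named on the arrays, from 179 probe sets, and the probe set of highest mean signal represents each gene. By complex there were 34 genes of complex I, 8 assembly factors of complex I, 4 genes of complex II, 8 of complex III, 19 of complex IV and 17 of complex V. Ndufa4, Ndufa4l2 and Cox7a2l were placed with complex IV. Subunits encoded in mitochondrial DNA are outside the rule.

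By the labels, RNA came from the frontal cortex of mice at 21 days of age, all on a C57BL/6 and 129 mixture. Each of 6 genotypes had 1 lobe and 1 array. Breeding of mice heterozygous for both Vldlr and Apoer2 gave the wild type (WT), the knockout of Vldlr, that of Apoer2 and one without either receptor (double KO). The knockouts of Dab1 and of Reln were bred from separate heterozygous parents, and no wild-type littermate of those crosses was among the samples. Reln encodes Reelin, an extracellular cue for migrating neurons, Vldlr and Apoer2 (Lrp8) bind it, and Dab1 passes the signal on within the cell. Following the series title, Dab1 KO, Reln KO and double KO are the reeler models, and comparison arrays means WT, Vldlr KO and Apoer2 KO.

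The respiratory chain sits in the inner mitochondrial membrane. Complex I (NADH dehydrogenase) and complex II (succinate dehydrogenase) pass electrons to ubiquinone, complex III passes them to cytochrome c, and complex IV (cytochrome c oxidase) passes them to oxygen. Complexes I, III and IV pump protons, and complex V (ATP synthase) uses the proton gradient to make ATP, on which neurons depend for ion pumping and synaptic transmission. Many of the nuclear genes that encode the chain carry binding sites for the transcription factors NRF1, ETS family (NRF2) and YY1 in their promoters.

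The bases before the start site are shown for 3 of these genes because they are examples of such motifs and the genes recur in the results. They were taken from RefSeq, build GRCm38.p6, in the orientation of the gene. Sdha (chr13:74350241-74350490, minus strand) encodes the catalytic subunit of complex II, Cox6a1 (chr5:115348959-115349208, minus strand) a complex IV subunit, and Ndufs5 (chr4:123718187-123718436, minus strand) an accessory subunit of complex I. Capitals mark matches to the NRF1 motif (runs of 10 bases) or to the ETS motif CCGGAAG (runs of 7 bases) on either strand.
Sdha: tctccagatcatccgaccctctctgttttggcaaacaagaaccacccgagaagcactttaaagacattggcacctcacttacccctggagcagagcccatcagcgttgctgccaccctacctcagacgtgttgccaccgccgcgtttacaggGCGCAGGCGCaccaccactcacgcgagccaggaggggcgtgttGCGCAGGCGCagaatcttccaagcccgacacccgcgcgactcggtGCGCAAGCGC
Cox6a1: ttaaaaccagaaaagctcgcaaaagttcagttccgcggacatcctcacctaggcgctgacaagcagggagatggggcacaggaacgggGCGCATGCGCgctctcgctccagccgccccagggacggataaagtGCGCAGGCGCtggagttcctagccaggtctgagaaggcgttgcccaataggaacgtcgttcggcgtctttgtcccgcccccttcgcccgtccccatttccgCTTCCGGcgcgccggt
Ndufs5: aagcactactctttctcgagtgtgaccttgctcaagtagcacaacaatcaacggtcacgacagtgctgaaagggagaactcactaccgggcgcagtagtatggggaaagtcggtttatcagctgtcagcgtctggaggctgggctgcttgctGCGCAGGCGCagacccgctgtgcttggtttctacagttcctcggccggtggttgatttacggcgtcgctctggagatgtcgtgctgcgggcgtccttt
Sdha held 3 NRF1 matches, Cox6a1 held 2 NRF1 matches and 1 ETS match, and Ndufs5 held 1 NRF1 match. RefSeq promoters matched 74 of the 90 genes, with 79 promoters in all. In windows of 250 bases before to 50 after the start, the NRF1 motif occurred in 18 of the 79 (22.8%), against 4.6% of all 32851 mouse promoters in the table. The ETS motif occurred in 19 (24.1%, against 8.86%), and the YY1 motif in 5 (6.33%, against 0.852%). Both strands were searched, and the motifs may overlap. A match describes the letters in the window and does not show that a factor binds there.

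Signals are deposited array intensities on a linear scale in arbitrary units, and the trimmed mean was 249.4 to 249.5 on every array, so the arrays were brought to one level. Differences are of log2(signal + 28.1). Reln signal was 79.9 on the Reln array against 1498.3 to 1880.0 on the others. Lrp8 was 4.2 and 13.7 on the arrays lacking Apoer2 against 342.4 to 379.8, and Vldlr was 217.9 and 126.8 on those lacking Vldlr against 472.5 to 600.0. The Dab1 probe set read 478.5 on the Dab1 array against 516.4 to 626.0. Its place relative to the disrupted part of the gene is not given in the sources used here, so it does not check that label. All mice were labelled male, but Xist read 3367.6 to 4006.0 and Eif2s3y, a Y-linked gene, 0.6 to 7.7 on 5 arrays, while the Apoer2 array had 124.9 and 367.5. Gh, a pituitary hormone gene, read 3704.8 on the Apoer2 array and 13.1 to 32.4 on the others. The class result is therefore given with and without the Apoer2 array.

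Of the 90 genes, 86 passed a filter on dim genes (a mean signal of at least 89.0), among 11577 genes kept in all. Cox7a1, Cox7b2, Cox8b and Ndufb4 did not pass. Cox7a1 (48.9 to 72.0), Cox7b2 (36.7 to 70.1) and Cox8b (50.6 to 93.2) are isoforms known from muscle, testis or brown fat. For Ndufb4 the single-gene probe set read only 55.4 to 69.0, while 2 probe sets shared with Ndufb4b and Ndufb4c read 1433.3 to 2349.0. Cox7c likewise rested on a dim probe set (76.3 to 130.5). As a measure of background, the brightest bacterial control on each array read 28.4 to 39.6. Across the 86 genes the highest array exceeded the lowest by a median of 1.25-fold (range 1.07 to 2.28), and 11 genes exceeded 1.5-fold.

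The 3 reeler models were set against the 3 comparison arrays, a grouping that follows the series title. All comparison arrays came from the receptor cross, whereas the Dab1 and Reln arrays came from other crosses. Class and cross are therefore partly confounded. No respiratory chain gene passed an adjusted p of 0.05 in limma's moderated test in either direction, where 0.0173% of all kept genes were called higher and 0.112% lower (0.13% in all). At an unadjusted p under 0.05, 6 of the 86 were higher (all kept genes 5.26%) and 1 was lower (5.71%). The lowest adjusted p in limma was 0.376, for Uqcrc1. The median difference was 0.052 over the 86 genes and 0.0096 over all kept genes, and 53 of the 86 (61.6%) lay above 0, against 52.2% of all kept genes. Without the Apoer2 array the median was 0.055 with 54 above 0. Without the WT array it was 0.0099 with 45 above 0, without the Dab1 array 0.016, without the double KO array 0.034, and without the Reln array 0.1. With quantile normalization it was -0.02, and with arrays centred on the median of kept genes 0.081. The classes did not overlap for 11 genes that were higher in the reeler models (background 9.08%) and 2 that were lower (8.49%), shares of 12.8% and 2.33%. Each class holds different genotypes, so the spread within it includes genotype differences. Nothing here measures how much mice of 1 genotype vary.

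The cerebellar granule cell marker list moved with the classes. All 11 kept markers of 12 were lower in the reeler models, 8 of them past an adjusted p of 0.05 in limma, and the summed signal was 4174 to 5578 against 12867 to 16008. Summed cortical neuron markers were 4718 to 6474 in the reeler models and 4927 to 5383 in the comparison arrays, and general neuron markers 30399 to 35776 and 31659 to 32929. Purkinje cell markers, also of the cerebellum, lay below 0 for all 6 kept genes (median -0.16), with 0 called. Their sums overlapped, at 11887 to 15116 in the reeler models and 13882 to 14888 in the comparison arrays. Pcp4 and Calb1, the brightest of them, weighed most in these sums. Car8 alone separated the classes, at 1262.1 to 2008.9 against 2076.7 to 2299.6 (limma adjusted p = 0.376). In bulk tissue, fewer cells of a type, less RNA per cell and a different share of cerebellar tissue in the sample cannot be told apart. The labels give frontal cortex, yet on the WT array the granule cell markers Gabra6 and Cbln3 read 1797.0 and 1593.4. Of 7 choroid plexus markers 3 passed the filter, among them Ttr at 8328.4 on the WT array. What tissue beyond frontal cortex the samples held was not tested. The part of the granule cell markers in the differences of respiratory chain genes was not tested.

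**Figure D1:**
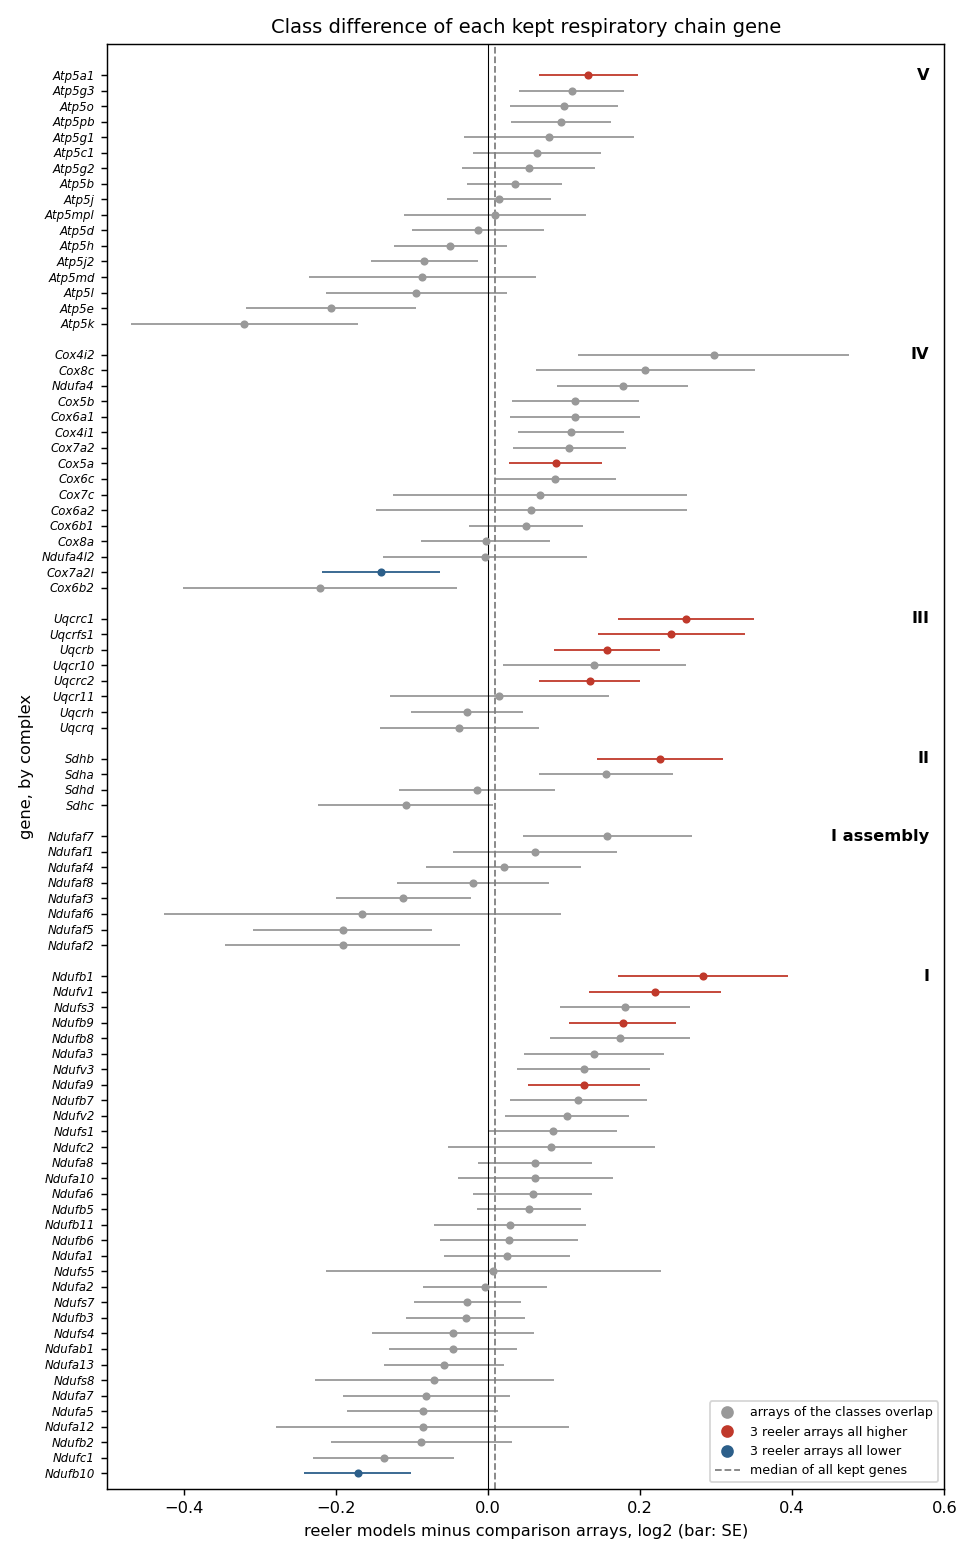
Class difference of each of the 86 kept genes by complex (x axis, reeler models minus comparison arrays on the log2 scale; bars, SE). Red and blue mark genes whose 3 reeler arrays all lie above or below the comparison arrays, and the dashed line is the median of all kept genes, 0.0096. Values run from -0.32 for Atp5k to 0.30 for Cox4i2.

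Complex I, the largest complex, had 33 kept genes, with a median class difference of 0.029 and 20 above 0. For Ndufv1, the core subunit that carries the NADH-binding flavin, the signals were 1925.4 in WT, 2132.7 in Vldlr KO, 2230.9 in Apoer2 KO, 2628.0 in Dab1 KO, 2275.8 in Reln KO and 2432.7 in double KO. All reeler arrays lay above all comparison arrays, with a difference of 0.22 ± 0.087 (SE, 3 arrays against 3, limma adjusted p = 0.427). In its 2 further probe sets the Reln array fell inside the comparison range, with differences of 0.08 and 0.10. For Ndufb1, an accessory subunit, signals were 252.3, 243.2 and 257.0 in WT, Vldlr KO and Apoer2 KO and 307.8, 348.3 and 280.7 in Dab1 KO, Reln KO and double KO. Its difference of 0.28 ± 0.11 (limma adjusted p = 0.427) was the highest of complex I. Ndufb9, another accessory subunit and the brightest of complex I by mean signal, read 4833.4 to 5356.9 on the comparison arrays and 5549.7 to 6165.8 on the reeler arrays (0.18 ± 0.071, limma adjusted p = 0.428).

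Ndufb10, an accessory subunit of the membrane arm, ran the other way. Its signals were 1751.8, 1713.4 and 1752.6 in WT, Vldlr KO and Apoer2 KO and 1546.7, 1575.7 and 1503.1 in Dab1 KO, Reln KO and double KO. The classes did not overlap, and the difference was -0.17 ± 0.070 (limma adjusted p = 0.433). Ndufc1 read 2213.0, 2172.9 and 2310.6 on the comparison arrays and 2284.1, 1823.3 and 1997.7 on the reeler arrays, which overlapped (-0.14 ± 0.093, adjusted p in limma 0.596).

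Ndufa12, an accessory subunit, read 3232.8 in WT, 3355.0 in Vldlr KO, 3027.5 in Apoer2 KO, 3566.0 in Dab1 KO, 2078.4 in Reln KO and 3696.7 in double KO. The Reln array was the low one, 0.63 below WT on the log2 scale, and the other 2 reeler arrays were the highest. Its probe sets disagreed there: another ending in _x_at, which can cross-hybridize, was also low on the Reln array (1946.2), whereas the other one past the filter was highest on it, at 2143.7 against 1802.4 to 1949.7. Chosen after its values were seen, Ndufs5 read 1832.6 in WT, 2056.3 in Vldlr KO and 1381.0 in Apoer2 KO, then 2282.7 in Dab1 KO, 1880.1 in Reln KO and 1229.4 in double KO. Both arrays lacking Apoer2 were the lowest. A probe set shared with the pseudogene Ndufs5-ps gave 1150.1, 1245.6, 957.2, 1284.7, 1040.2 and 887.0 in the same order, with the same arrays lowest. Ndufs5 and Lrp8 (Apoer2) both lie on chromosome 4, and the mice were of mixed strain. The part of strain differences near Lrp8 in these values was not tested.

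**Figure D2:**
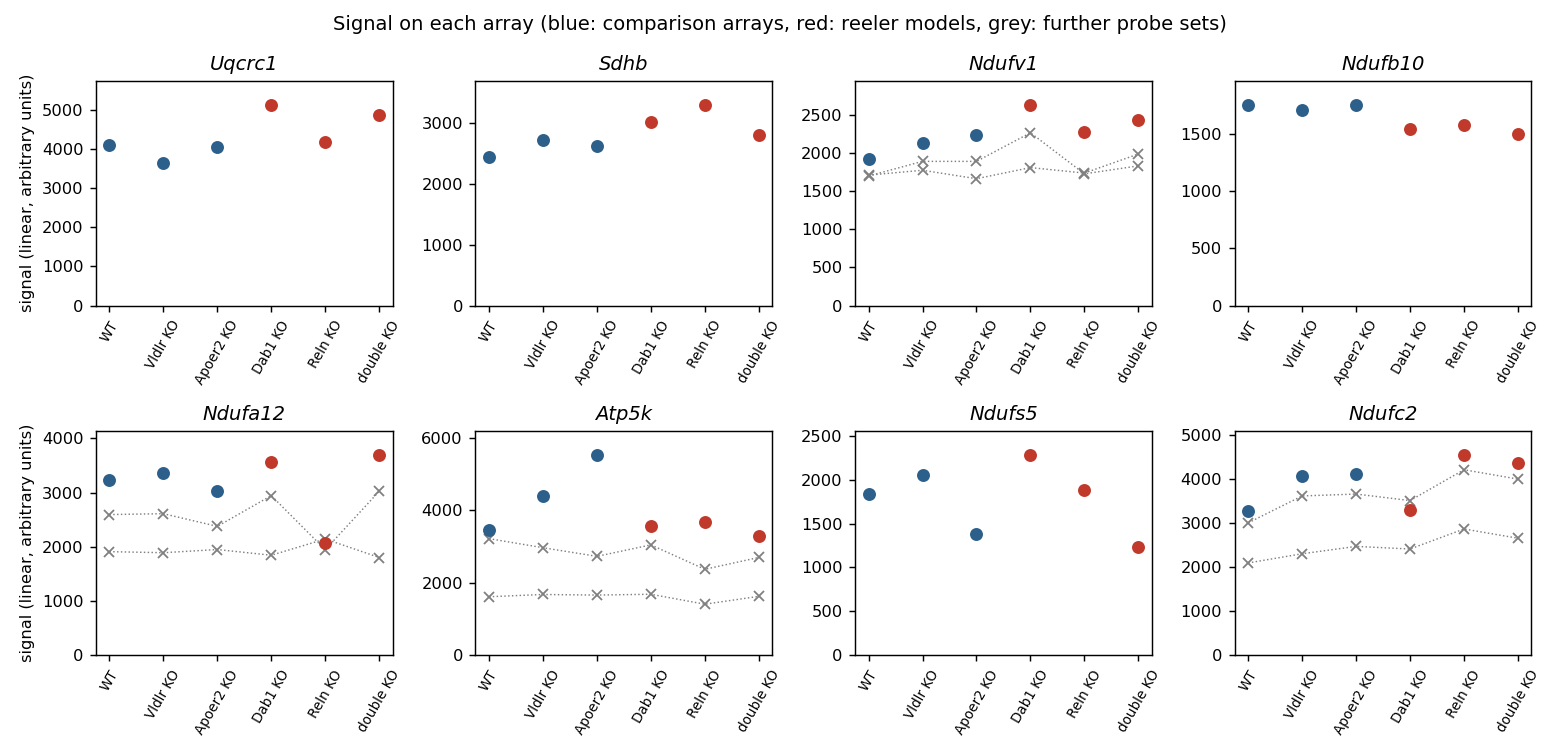
Signal on each array (y axis, linear, arbitrary units) for 8 genes, with comparison arrays in blue and reeler models in red. Grey crosses are further probe sets of the same gene. Ndufb10 and Sdhb separate the classes, while the low Reln value of Ndufa12 and the high Apoer2 value of Atp5k do not appear in every probe set.

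The assembly factors of complex I, proteins that help build the complex without being part of it, had a median class difference of -0.065, with 3 of 8 above 0. Ndufaf6, the dimmest of them, read 112.6 in WT, 137.9 in Vldlr KO, 66.3 in Apoer2 KO, 86.6 in Dab1 KO, 60.6 in Reln KO and 125.8 in double KO. The Reln array was lowest, the Vldlr array highest, and the classes overlapped (-0.16 ± 0.26, limma adjusted p = 0.834). Among these factors, chosen after their values were seen, Ndufaf5 was highest in WT (470.2), with 330.2 to 404.5 on the 5 mutant arrays. Against WT the assembly factor medians were 0.069 in Vldlr KO, -0.17 in Apoer2 KO, -0.063 in Dab1 KO, -0.14 in Reln KO and 0.064 in double KO.

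Complex II had a median class difference of 0.070 over its 4 genes. Sdhb, the iron-sulfur subunit, read 2442.3, 2726.3 and 2624.4 in WT, Vldlr KO and Apoer2 KO and 3028.8, 3301.0 and 2812.1 in Dab1 KO, Reln KO and double KO. The classes did not overlap, and the difference was 0.23 ± 0.083 (limma adjusted p = 0.404). Sdha, the flavoprotein subunit whose promoter is shown above, read 3111.1, 3415.9 and 3018.3 against 3182.9, 3661.4 and 3809.5. Only the Dab1 array of the reeler models fell within the comparison range (0.15 ± 0.088, limma adjusted p = 0.545). In the further Sdha probe set past the filter all reeler arrays did so, at 1935.7 to 2063.4 against 1846.4 to 2124.0, with a difference of 0.03. The membrane anchors Sdhc and Sdhd overlapped between classes. Sdhc read 1377.9 to 1770.0 on the comparison arrays and 1302.5 to 1608.2 on the reeler arrays (-0.11 ± 0.12, limma adjusted p = 0.738). Sdhd read 1067.4 to 1217.0 and 1058.7 to 1297.3 (-0.014 ± 0.10, adjusted p in limma 0.968).

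Complex III had the highest median class difference, 0.14 over 8 genes, and 6 lay above 0. Uqcrc1, a core protein, read 4097.3, 3659.1 and 4061.1 in WT, Vldlr KO and Apoer2 KO and 5130.2, 4197.0 and 4877.5 in Dab1 KO, Reln KO and double KO. The classes did not overlap, although the Reln array lay close to WT (0.26 ± 0.089, limma adjusted p = 0.376). Uqcrfs1, the Rieske iron-sulfur subunit, read 1464.6, 1870.0 and 1598.8 against 1935.7, 1960.1 and 1919.0 (0.24 ± 0.097, limma adjusted p = 0.431). The small subunit Uqcrb read 5319.9 to 5742.9 on the comparison arrays and 5817.0 to 6600.4 on the reeler arrays (0.16 ± 0.070, limma adjusted p = 0.463). Its further probe set overlapped between classes and differed by -0.06.

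The small subunits Uqcrh, the hinge protein, and Uqcrq lay below 0. Uqcrh read 2872.4 to 3102.4 on the comparison arrays and 2773.2 to 3112.7 on the reeler arrays (-0.028 ± 0.073), and Uqcrq 2182.8 to 2404.3 and 1975.5 to 2593.0 (-0.038 ± 0.10). Neither passed the test, with limma adjusted p of 0.905 and 0.911. The sign of Uqcrh changed with some other settings, among them the mean of all its probe sets (0.027).

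Complex IV had 16 kept genes, with a median class difference of 0.089 and 12 above 0. Over its 10 main isoforms the highest array exceeded the lowest by a median of 1.19-fold. Cox7a2, the brightest of the complex by mean signal, read 6556.4, 7185.5 and 6984.8 in WT, Vldlr KO and Apoer2 KO and 7811.6, 6778.2 and 7762.0 in Dab1 KO, Reln KO and double KO. The Reln array fell inside the comparison range (0.11 ± 0.074, adjusted p in limma 0.607). Cox4i1 read 5916.1 to 5992.6 on the comparison arrays and 5907.5 to 6896.4 on the reeler arrays (0.11 ± 0.070, limma adjusted p = 0.579). For Cox6a1 these ranges were 6398.0 to 7166.9 and 6523.7 to 8023.3 (0.11 ± 0.085, limma adjusted p = 0.635). Cox6b1 gave 0.05 ± 0.075 and Cox8a -0.0031 ± 0.085. Ndufa4, a complex IV subunit once assigned to complex I, read 3714.5, 3871.6 and 4255.5 against 4836.1, 4048.9 and 4525.3 (0.18 ± 0.086, limma adjusted p = 0.488).

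Over the 5 kept tissue or condition isoforms the highest array exceeded the lowest by a median of 1.72-fold. Cox4i2, known for its induction by low oxygen in lung, read 108.6, 65.0 and 79.2 in WT, Vldlr KO and Apoer2 KO and 113.5, 117.2 and 94.9 in Dab1 KO, Reln KO and double KO. WT lay among the reeler arrays, and the difference of 0.30 ± 0.18 did not pass (limma adjusted p = 0.556). Cox6a2, the heart and muscle form that is also found in parvalbumin interneurons, read 182.4, 251.5 and 185.7 against 293.7, 161.0 and 204.8. It was 0.61 above WT on the Dab1 array and 0.15 below it on the Reln array. Summed muscle markers were 718 to 820 in the reeler models and 673 to 837 in the comparison arrays, with 3 of 12 kept. Summed parvalbumin interneuron markers were 10926 to 11658 and 10500 to 11546, but 3 single markers separated the classes without passing the test (lowest limma adjusted p = 0.0629, for Kcnc1). Pvalb read 1905.4 to 2147.4 in the reeler models against 2306.4 to 2733.9, and Kcnc1 384.8 to 527.1 against 801.0 to 1122.6, while Gad2 read 1448.6 to 1868.6 against 1183.3 to 1219.1. Bulk tissue does not show which cells these signals came from, and cerebellar granule cell markers moved with the classes too. The part of muscle and parvalbumin interneuron markers in the Cox6a2 values was not tested.

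Cox6b2, the testis form, read 100.2, 138.7 and 112.5 against 124.5, 80.5 and 86.5 (-0.22 ± 0.18, limma adjusted p = 0.658). Cox8c, another testis form, read 670.6, 439.3 and 575.8 against 625.2, 684.0 and 623.5 (0.21 ± 0.14, limma adjusted p = 0.607). Its further, dimmer probe set, ending in _x_at, read 130.1, 179.7 and 133.3 against 277.4, 307.6 and 304.1. In that one the classes did not overlap, with a difference of 0.89. Ndufa4l2, known for its induction by low oxygen, read 135.4 to 173.7 and 139.7 to 164.9. Cox7a2l, a factor that joins complexes III and IV into supercomplexes, read 1539.7, 1419.9 and 1564.9 in WT, Vldlr KO and Apoer2 KO and 1330.7, 1355.7 and 1410.0 in Dab1 KO, Reln KO and double KO. In this probe set all reeler arrays lay below all comparison arrays (-0.14 ± 0.078, limma adjusted p = 0.538). The other probe sets of Cox7a2l did not show it, with class differences of 0.01 and 0.08 and overlapping classes.

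Complex V had 17 kept genes, with a median class difference of 0.015 and 10 above 0. Atp5a1, the alpha subunit of the catalytic head, read 5389.3, 5301.8 and 5827.5 in WT, Vldlr KO and Apoer2 KO and 6017.4, 5829.5 and 6260.3 in Dab1 KO, Reln KO and double KO. In the chosen probe set the highest comparison array and the lowest reeler array differed by only a few units (0.13 ± 0.065, limma adjusted p = 0.49). Atp5g3, the brightest of the complex by mean signal, encodes the subunit of the rotor ring and read 6488.8 to 6994.9 and 6854.6 to 7876.2 (0.11 ± 0.070, limma adjusted p = 0.578). Atp5e, the epsilon subunit, read 1018.3 to 1214.7 and 849.2 to 1065.6, with the Reln array lowest (-0.21 ± 0.11, limma adjusted p = 0.532).

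Atp5k, a small membrane subunit, read 3447.6 in WT, 4412.4 in Vldlr KO, 5538.9 in Apoer2 KO, 3560.9 in Dab1 KO, 3677.2 in Reln KO and 3290.6 in double KO. Its class difference of -0.32 ± 0.15 was the lowest of all 86 genes (limma adjusted p = 0.476), and it came from the Vldlr and Apoer2 arrays, since WT lay among the reeler arrays. Its other probe sets did not show it: one read 3222.3, 2971.3 and 2732.5 against 3049.7, 2375.3 and 2702.1, the other 1616.8, 1678.8 and 1662.3 against 1685.3, 1410.7 and 1627.2. Across the complexes, 67 further probe sets passed the filter in 46 of these genes, and 43 of them gave the sign of the chosen probe set and 24 the opposite sign.

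Each mutant array was also set against the WT array, with no test, since there is 1 array per genotype. These comparisons share the WT array. The median over the 86 genes was 0.10 in Vldlr KO, 0.091 in Apoer2 KO, 0.19 in Dab1 KO, -0.0088 in Reln KO and 0.13 in double KO, while medians over all kept genes ran from -0.0046 to 0.018. Genes above WT numbered 64, 64, 72, 41 and 70 in that order, against 50.1%, 51.6%, 51.0%, 49.5% and 52.9% of all kept genes. In Dab1 KO, 19 genes (22.1%) were at least 1.2-fold above WT, where 16.1% of all kept genes were, and 3 were as far below (17.5%). In double KO 14 (16.3%) were above (background 16.4%) and 3 below (15.4%). In Vldlr KO these counts were 9 (13.0% of all kept genes) and 3 (15.5%), in Apoer2 KO 5 (8.98%) and 6 (10.1%), and in Reln KO 5 (19.1%) and 6 (21.7%). These counts depended on the scaling. Centred on ribosomal protein genes they were 2 above and 13 below in Dab1 KO, 1 and 14 in double KO, and 3 and 22 in Reln KO. With quantile normalization they were 10 and 1 in Dab1 KO and 2 and 4 in double KO.

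Few genes lay 1.5-fold or more from WT. In Apoer2 KO this was Atp5k (background 2.37%), in Dab1 KO Cox6a2 (6.35%), and in Reln KO Ndufa12 and Ndufaf6 (10.5%). In Vldlr KO (background 4.48%) and double KO (5.52%) there were 0. Complex III had the highest median on the Dab1 array, at 0.32, against 0.19 in complex I, 0.15 in II, 0.19 in IV and 0.16 in V. On the Reln array medians ran from -0.14 in the assembly factors to 0.11 in complex II.

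**Figure D3:**
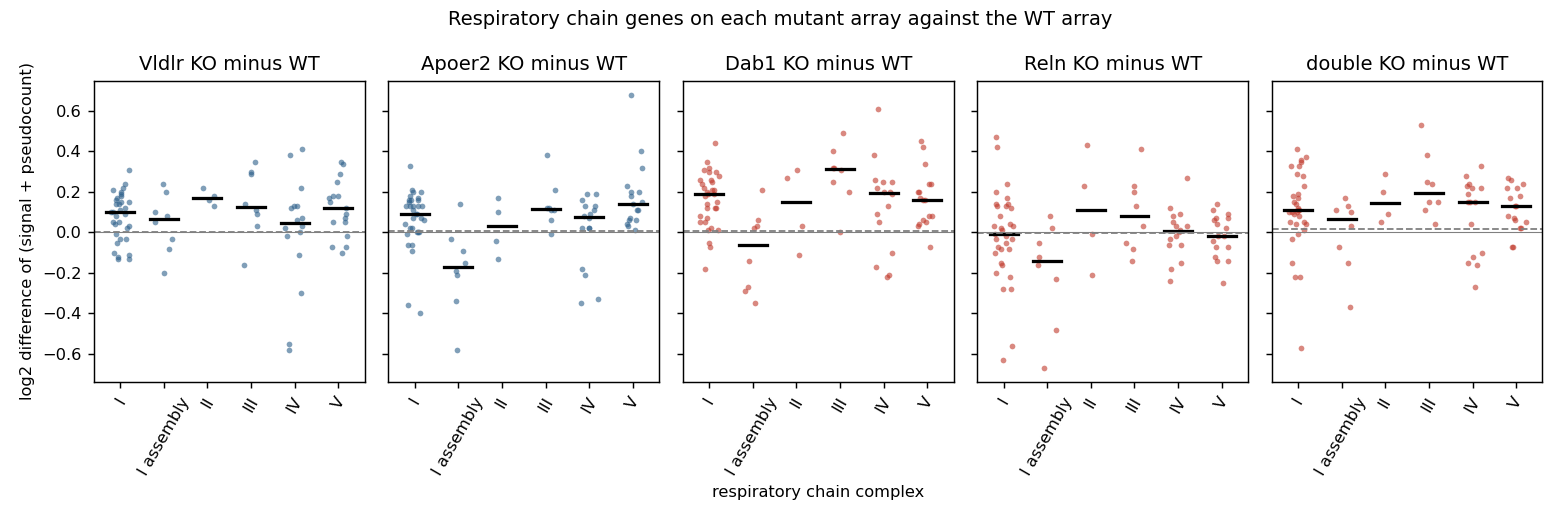
Difference of each kept gene from WT (y axis, log2) on each mutant array, by complex (x axis). Points are genes, black bars are medians and the dashed line is the median of all kept genes. The Dab1 medians of complexes I to V lie at 0.15 to 0.32, and the Reln medians between -0.017 and 0.11.

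The Reln array was the lowest of the 3 reeler arrays for 65 of the 86 genes (75.6%), against 40.2% of all kept genes. Among all 6 arrays it was the lowest for 33 genes (38.4%, against 25.1%). The Dab1 array was the highest of all 6 for 34 genes (39.5%, against 16.6%). WT was the lowest of all 6 for 26 genes (30.2%, against 19.9%). Under quantile normalization the shares were 64.0% against 40.8% for Reln among the 3 reeler arrays, 30.2% against 18.0% for Dab1, and 17.4% against 21.2% for WT. Centred on cytosolic ribosomal protein genes they were 65.1% against 31.9%, 16.3% against 6.44%, and 4.65% against 5.39%. Centred on the median of kept genes, WT was lowest for 40.7% against 23.8%. A sign of RNA quality, the 5' to 3' ratio of Actb, was lowest on the arrays where the median level of these genes was highest: 0.688 in double KO and 0.692 in Dab1 KO, against 0.721 in Vldlr KO, 0.735 in Apoer2 KO, 0.753 in WT and 0.757 in Reln KO. The 5' to 3' ratio of Gapdh did not follow this order. It was 1.402 in double KO, 1.369 in Dab1 KO, 1.382 in Vldlr KO, 1.431 in Apoer2 KO, 1.414 in WT and 1.401 in Reln KO. The part of RNA quality in the pattern was not tested.

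Arrays lacking the same receptor were also read together, with no test. Both arrays lacking Apoer2 lay above all others for 7 genes (5.06% of all kept genes did so): the ATP synthase subunits Atp5h and Atp5j, the complex I subunits Ndufa2, Ndufa5 and Ndufb6, and the complex III subunits Uqcr10 and Uqcrh. They lay below all others for Ndufs5 and the assembly factor Ndufaf4 (3.88%). Further probe sets past the filter showed the same for Atp5h, but not for Ndufa5, Ndufb6, Uqcr10, Uqcrh or Ndufaf4. Of the genes highest or lowest on both arrays lacking Apoer2, Ndufb6, Uqcrh, Ndufs5 and Ndufaf4 lie on chromosome 4, as Lrp8 and Dab1 do. Uqcrh (from base 116075071) and Ndufs5 (123718187) lie nearer to Lrp8 (107802635) than Ndufb6 (40279422) and Ndufaf4 (24897833). The share of all kept genes on chromosome 4 was not taken. The part of strain differences linked to Lrp8 was not tested. Both arrays lacking Vldlr read above all others for Sdhc and the assembly factors Ndufaf2, Ndufaf6 and Ndufaf8 (4.93%), and below them for Ndufa4l2 (4.64%). The further probe set of Sdhc past the filter showed the same, and that of Ndufaf8 did not.

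The medians against WT depended on the scaling. Genes of cytosolic ribosomal proteins also read above WT, with medians of 0.062 in Vldlr KO, 0.11 in Apoer2 KO, 0.19 in Dab1 KO, 0.11 in Reln KO and 0.25 in double KO. When each array was centred on these genes, the median of all kept genes shifted by more than 0.1 in the class comparison, to -0.11, and the respiratory chain median was -0.067. Its values against WT were then 0.0012 in Vldlr KO, -0.022 in Apoer2 KO, -0.026 in Dab1 KO, -0.16 in Reln KO and -0.078 in double KO. In Apoer2 KO, Dab1 KO and double KO the respiratory chain median thus lay above 0 as deposited and below 0 relative to ribosomal protein genes, where all kept genes lay lower still, at -0.11, -0.21 and -0.19.

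**Figure D4:**
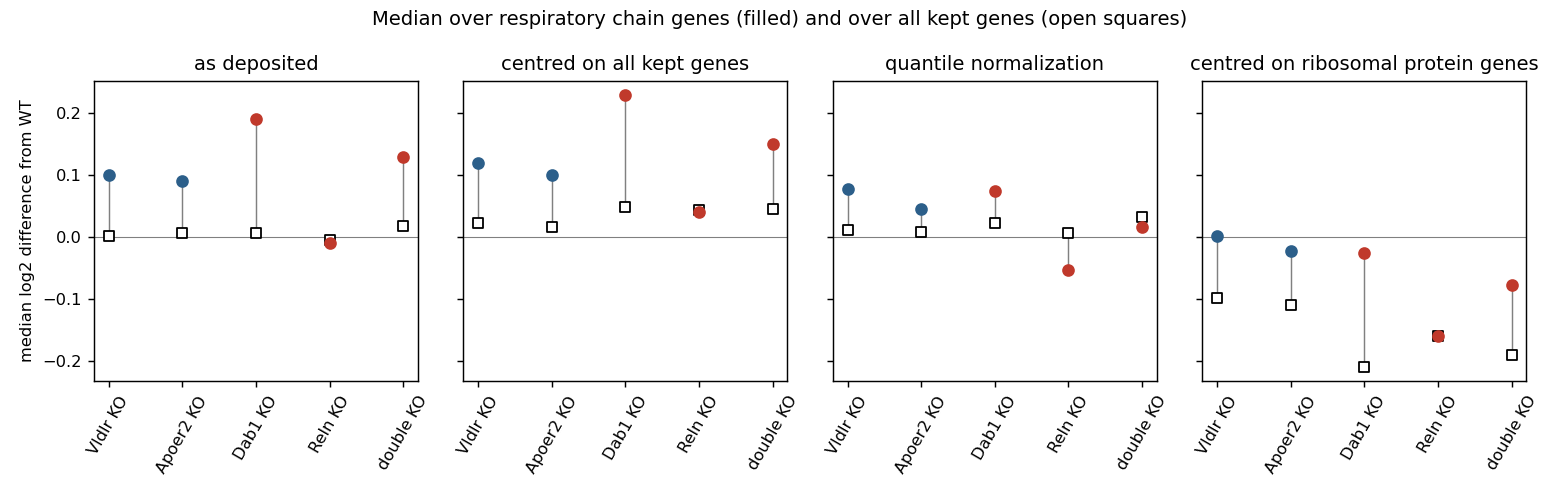
Median difference from WT (y axis, log2) over the respiratory chain genes (filled circles) and over all kept genes (open squares) on each mutant array, under 4 scalings. As deposited the Dab1 median is 0.19, with quantile normalization 0.074, and centred on ribosomal protein genes -0.026.

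Other genes of mitochondria, energy metabolism and cytosolic ribosomes were taken from lists. Of these lists 0 genes were called by limma at the same threshold, against 0.13% of all kept genes. For electron carriers and coenzyme Q synthesis, 15 of 21 kept genes lay above 0, with a median of 0.051, from -0.40 for Coq2 to 0.32 for Coq7. For the tricarboxylic acid cycle, 14 of 16 lay above 0 (median 0.094), from -0.16 for Ogdh to 0.21 for Dlat, a subunit of pyruvate dehydrogenase. For glycolysis, 13 of 14 lay above 0 (median 0.11), from -0.05 for Pfkl to 0.19 for Aldoa. Assembly factors of complex IV had a median of -0.051, from -0.39 for Coa6 to 0.40 for Cox15, with 7 of 16 above 0. Other assembly factors had a median of -0.077, from -0.50 for Timmdc1 to 0.42 for Foxred1, with 8 of 18 above 0.

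Regulators of mitochondrial biogenesis lay below 0 for 12 of 16 genes (median -0.034), from -0.53 for Ppargc1b, a coactivator of respiratory genes, to 0.11 for Tfb2m, a mitochondrial transcription factor. Mitochondrial antioxidant genes had a median of 0.14 with 6 of 9 above 0, from -0.56 for Slc25a14 to 0.25 for Glrx2. Mitochondrial ribosomal proteins were split, with 38 of 76 above 0 and a median of 0.0044, from -0.36 for Mrps21 to 0.60 for Mrpl41. Cytosolic ribosomal proteins had a median of 0.13 with 36 of 44 above 0, from -0.19 for Rps6 to 0.38 for Rps27. The lists are described by these counts, and all kept genes had a median of 0.0096 with 52.2% above 0.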

How the data were processed

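The authors deposited linear signal intensities of 45101 probe sets. The submitters' processing notes name MAS5 and Affymetrix Expression Console, and no version is given in the sources used here. Total RNA was extracted from 1 lobe per sample and made into labelled cRNA, per the labels' protocols. MAS5 scales each array to one mean, so levels are relative to the other genes of an array. Gapdh had a 5' to 3' ratio of 1.37 to 1.43, and Actb one of 0.688 to 0.757. Signals of different probe sets are not comparable in level.

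Gene names are those of the platform annotation, in which 34958 probe sets name 1 gene, 932 several and 9211 none. The probe set with the highest mean signal stood for a gene. Genes were kept from a mean signal of 89.0 upwards, which is the probe sets' median. Values were log2(signal + 28.1), the 25th percentile of all values, which understates changes of dim genes. Classes were compared over all 11577 kept genes with limma 3.58.1 in R 4.3.3 (trended prior, Benjamini-Hochberg adjustment), after the fit was tested on simulated data. Differences from WT have no test. The number of arrays, 1 per genotype, limits the precision.

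The text names, per complex, the 2 highest and 2 lowest class differences, the brightest gene and genes below the filter, all of complex II, genes 1.5-fold from WT, isoform pairs, and the highest and lowest gene of each list. Other genes without class overlap, and those said to be, were chosen after their values were seen. The genes and lists were chosen with earlier results of these data known. Alternatives were other pseudocounts, filters, scalings, probe set choices, variance priors and comparison arrays, a cross covariate, and leaving out each array.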

Additional observations from a re-analysis of the deposited data

Results flagged for a closer look

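For 3 of the 86 kept genes, loss of Vldlr went in opposite directions, past 1.2-fold each way, with Apoer2 present (Vldlr KO minus WT) and without it (double KO minus Apoer2 KO). Of all kept genes, 367 (3.17%) did so, a similar share. With 1 array per genotype the difference was not tested. Atp5k differed by 0.35 with Apoer2 present and -0.75 without it, and its other probe sets did not show the high Apoer2 value. Atp5md, another small membrane subunit of ATP synthase, differed by 0.34 and -0.29. Cox6b2, a dim isoform, differed by 0.38 and -0.29.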

How the results depend on the processing

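No paired analysis was possible because each genotype has 1 array and the labels carry no replicate number. The count of respiratory chain genes past an adjusted p of 0.05 in limma was 0 in each direction under every setting run. The nearest was Cox8c with the mean of all probe sets, where the difference was 0.55 (limma adjusted p = 0.0848). Its further probe set differed by 0.89. Over all kept genes 15 were called, against 38 when centred on ribosomal protein genes, 9 with the cross covariate, 0 with WT as the only comparison array, 1 without WT and 23 without Dab1 KO. The class median of 0.052 was -0.02 with quantile normalization and -0.067 when centred on ribosomal protein genes, and ran from 0.0099 to 0.1 when one array was left out. It was 0.081 when centred on the median of kept genes, 0.082 with the cross covariate and 0.097 with WT as the only comparison array. With quantile normalization the median against WT was 0.074 in Dab1 KO and 0.017 in double KO. Centred on ribosomal protein genes it was 0.0012 in Vldlr KO, -0.022 in Apoer2 KO, -0.026 in Dab1 KO, -0.16 in Reln KO and -0.078 in double KO. The cause was not tested.

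Of 32 named genes tested, 15 kept the sign of their class difference under all settings and 17 did not. Signs turned with quantile normalization for Cox4i1 (-0.0034), Cox6b1 (-0.045), Cox7a2 (-0.012) and Ndufa4l2 (0.024). Centred on ribosomal protein genes they turned for Atp5g3 (-0.0092), Cox4i1 (-0.0097), Cox6a1 (-0.005), Cox6a2 (-0.062), Cox6b1 (-0.069) and Cox7a2 (-0.012). Centred on the median of kept genes they turned for Cox8a (0.026), Ndufa4l2 (0.025), Sdhd (0.015) and Uqcrh (0.0015). With WT as the only comparison array they turned for Atp5k (0.024), Cox4i2 (-0.0045), Cox8a (0.099), Cox8c (-0.057), Sdhd (0.1), Uqcrh (0.02) and Uqcrq (0.049). With the cross covariate they turned for Cox8a (0.053), Ndufa12 (0.21), Ndufaf6 (0.24), Sdhc (0.056) and Uqcrh (0.067). With the mean of all probe sets they turned for Uqcrh (0.027) and Uqcrq (0.066), and with _x_at probe sets used last for Ndufa12 (0.0055). When one array was left out, Cox6a2 ran from -0.15 to 0.24, Cox8a from -0.054 to 0.074, Ndufa12 from -0.23 to 0.18, Ndufa4l2 from -0.075 to 0.077, Ndufaf6 from -0.4 to 0.03, Sdhd from -0.1 to 0.043, Uqcrh from -0.075 to 0.0075 and Uqcrq from -0.14 to 0.058.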

Other observations

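Uqcr10, a small subunit of complex III chosen after its values were seen, had probe sets that disagreed on the Dab1 array. The chosen one read 1259.0 in WT and 1582.4 in Dab1 KO. A further one read 357.9 in WT and 113.0 in Dab1 KO, with 244.5 to 358.5 on the other 4 arrays, and another 449.6 and 225.3. Ndufc2, a complex I subunit chosen the same way, read 3264.2 in WT and 3283.9 in Dab1 KO, and 4058.7 in Vldlr KO, 4115.6 in Apoer2 KO, 4542.1 in Reln KO and 4352.8 in double KO. Its further probe sets past the filter put the Dab1 array nearer the other mutants, at 2999.6 in WT and 3504.8 in Dab1 KO for one and 2091.0 and 2407.4 for the other.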
